A study of Mus musculus with 4 samples.

Results

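A set of 9 genes that supply DNA precursors, of 32285 genes counted, was followed through mouse mammary organoids. They were taken by name as the subunits of ribonucleotide reductase (Rrm1, Rrm2 and Rrm2b) and 6 enzymes that make, clear or recycle deoxynucleotides (Tk1, Tyms, Dtymk, Dut, Dck and Samhd1), and all 9 were counted in every library. Organoids, which are small epithelial structures grown in gel, were established from mammary glands of mice aged 9 to 11 months that were either wild type (WT) or carried a truncating germline mutation in 1 Brca2 allele in all their cells (Brca2mut/WT), and were kept as controls or exposed to hydroxyurea (HU) at 1 mM for 24 h with 4 days of recovery. They were later thawed, cultured for 3 days and dissociated, so the cells were not captured in the presence of the drug. Single-cell droplet libraries were made, 1 each for WT control, WT HU, Brca2mut/WT control and Brca2mut/WT HU, and values below are in this order. The labels give 2 replicates per library. The study sequenced cultures of passage 0 and of passage 4, the later ones with repeated HU rounds, and which passage a library or tagged pool holds, and so how many exposures, is not given in the sources used here. With 1 library per condition, differences between conditions have no replicate check and carry no p-value.

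Ribonucleotide reductase turns ribonucleotides into deoxyribonucleotides. Rrm1 encodes its large catalytic subunit, Rrm2 the small subunit of dividing cells, and Rrm2b an alternative small subunit that is a known p53 target and serves resting cells and DNA repair. HU blocks the enzyme by quenching the radical held by the small subunit. Thymidylate comes from Tyms, which methylates dUMP, or from Tk1, which salvages thymidine, and Dtymk adds the next phosphate. Dut breaks down dUTP, which keeps uracil out of DNA and yields the substrate of Tyms. Dck salvages deoxycytidine and purine deoxynucleosides, whereas Samhd1 degrades dNTPs and is known as an interferon-responsive barrier to viruses. The synthetic enzymes are known for high expression in S phase under E2F control and, for several, through CCAAT boxes near the start site.

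The promoters below are shown because those 3 genes are the members that hold the CCAAT letters within the 250 bases before and 50 after the RefSeq start (GRCm38.p6). The 120 bases before the start are printed, 5′ to 3′ on the gene's own strand, with CCAAT or its reverse complement ATTGG in capitals.
Rrm1, chr7:102441575-102441694, plus strand: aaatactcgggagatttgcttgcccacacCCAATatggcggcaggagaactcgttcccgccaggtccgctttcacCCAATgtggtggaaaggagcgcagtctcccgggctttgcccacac
Rrm2, chr12:24708134-24708253, plus strand: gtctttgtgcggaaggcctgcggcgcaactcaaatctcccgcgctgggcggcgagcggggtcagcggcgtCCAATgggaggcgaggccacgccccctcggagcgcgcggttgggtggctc
Dtymk, chr1:93801935-93802054, minus strand: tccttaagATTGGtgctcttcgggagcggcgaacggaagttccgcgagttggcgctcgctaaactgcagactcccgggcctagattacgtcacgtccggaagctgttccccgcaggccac
The first base of the motif lies 91 and 45 bases before the start in Rrm1, 50 in Rrm2 and 112 in Dtymk, where it is on the opposite strand. Promoters of 8 of the 9 genes had an entry, Rrm2b being the exception, and 3 of the 8 hold CCAAT on either strand, beside 37.4% of all 32851 promoters, so that the share is near the background. Tk1, Tyms and Dut, which also rose in cycling cells, hold none in this window. None of the 8 holds TTTCCCGC, TTTCGCGC, TTTGCCGC or TTTGGCGC on either strand, letters of the E2F site found in 2.26% of promoters. Only these exact strings were searched, so sites that differ from them were not counted. The printed bases of Rrm1 hold TTCCCGC and those of Dtymk hold TTGGCGC, each a searched string without its first letter. Dck alone holds TTTGAA or TTCGAA, letters of the cell cycle homology region found in 19.2%.

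In the GENCODE M21 annotation of GRCm38 the genes lie on 7 chromosomes. Rrm1 (ENSMUSG00000030978) is at chr7:102441695-102469771 and Rrm2 (ENSMUSG00000020649) at chr12:24708241-24714146, both on the plus strand, and Rrm2b (ENSMUSG00000022292) is at chr15:37923952-37961318 on the minus strand. The thymidylate genes Tk1 (ENSMUSG00000025574, chr11:117815526-117826092), Tyms (ENSMUSG00000025747, chr5:30058202-30073617) and Dtymk (ENSMUSG00000026281, chr1:93792576-93801934) are on the minus strand. Dut (ENSMUSG00000027203, chr2:125247190-125258608) and Dck (ENSMUSG00000029366, chr5:88764996-88783281) are on the plus strand and Samhd1 (ENSMUSG00000027639, chr2:157097533-157135265) is on the minus strand. A Tyms pseudogene on chromosome 10 is annotated but is not among the counted features, and reads shared with it were not separated.

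The libraries held 33268 barcodes, and 17360 cells passed the study's limits of 1000 to 6000 detected genes and under 5% mitochondrial UMIs, whereas the series text gives 34200 cells. Between 57 and 69 barcodes of a library were also present in another. No doublet caller was run, and kept cells carrying more than 1 antibody tag numbered 10 to 65 per library. HR- luminal cells, the hormone receptor-negative secretory lineage, were taken as cells with Krt14 and Areg under 300 UMIs per 1e6 UMIs of the cell (counts per 1e6, CPM), which gave 14008 cells, and basal cells as those with Krt14 of at least 500 CPM, which gave 2326. Their labels were checked on other genes. Of 10 HR- luminal markers, 7 were highest in those cells in every library (all but Aldh1a3, Krt8 and Krt18), as were 8 of 9 basal markers in basal cells (all but Mylk). Cycling cells had a summed Cenpf, Ccnb2 and Cdc20 level of at least 200 CPM, other cells under 50 CPM, and cells between were left out of the contrast. These classes are ranges of a score and not cell types, with 37 to 49 HR- luminal cells per library lying between 150 and 250 CPM. Cycling cells numbered 816 HR- luminal (166 to 254 per library) and 264 basal (29 to 123 per library). A further class, called S gene high, held cells under 50 CPM for the mitotic genes whose summed Mcm3, Mcm5, Mcm6, Cdc45, Clspn and Gins2 level was among the highest 10%. These cells are a part of the other cells and were counted with them unless stated. It numbered 795 HR- luminal and 242 basal cells. The upper gene limit removed 1969 to 2376 barcodes per library. Of those with under 10% mitochondrial UMIs and at most 1 tag, 19.4% to 23.7% met the cycling score against 6.38% to 7.25% of kept cells. The alternative with no upper gene limit, used below, also raised the mitochondrial limit to 10%. It left out cells with more than 1 tag as well, and the part of each change was not separated.

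**Figure D1:**
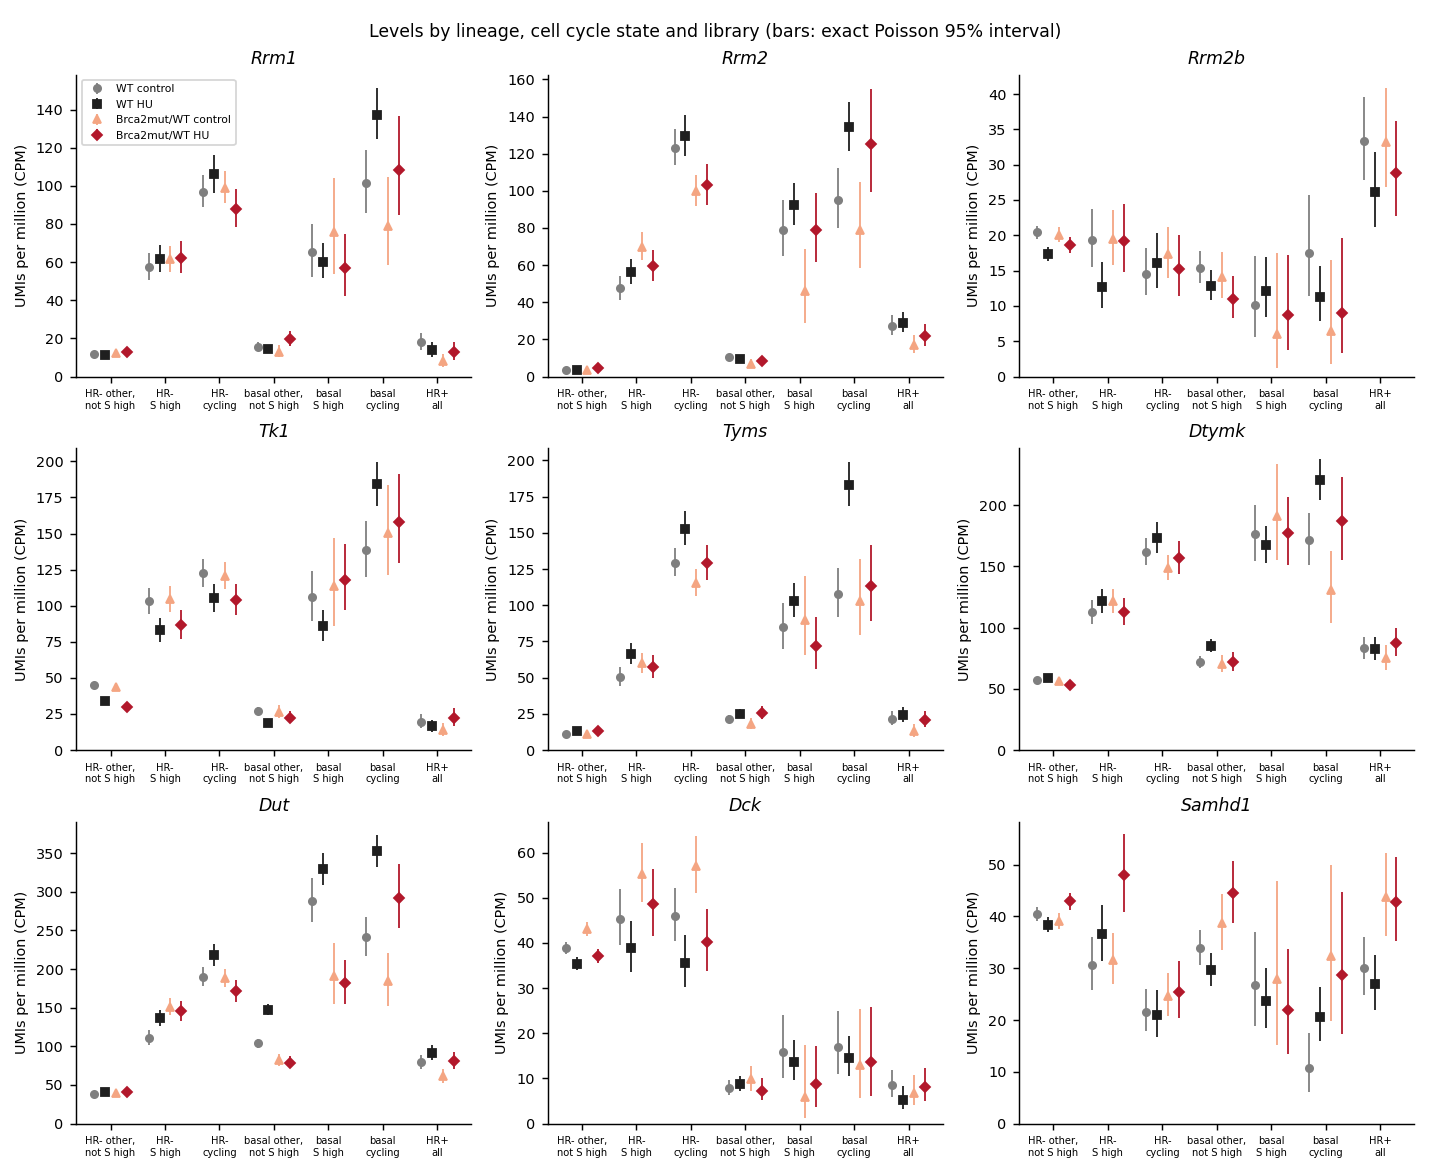
Level of each gene (y axis, CPM of all gene UMIs of the class) in HR- luminal, basal and HR+ luminal cells by cell cycle state (x axis), with 1 point per library and exact Poisson 95% intervals. Of the 3 states drawn, Rrm2, Tyms and Rrm1 are lowest in other cells without high S genes and highest in cycling cells in both lineages, whereas Samhd1 is lower in cycling than in other cells and Dck differs more between lineages than between states.

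Levels were first compared between cycling and other HR- luminal cells, which asks how each gene follows the cell cycle in the main lineage of these cultures. UMIs were summed over the cells of each state in each library and tested with edgeR's quasi-likelihood test, library as block, so that n is 4 libraries of different conditions and p-values measure the spread between them. Of the 9 genes, 8 were called at an adjusted p under 0.05, 6 higher and 2 lower, where 33.1% of the 7737 genes tested were called higher and 34.6% lower. With library totals in place of TMM scaling the 2561 higher and 2680 lower calls became 3626 and 1696 and the median change of all genes moved from -0.02 to 0.14, with the same direction for all 9 genes. The median log2 change of the 9 was 1.30, beside -0.02 over all genes tested. All 9 passed the filter of a mean of 10 CPM, Rrm2 through its cycling cells, and its call was also made with no filter. Printed CPM divide by all gene UMIs of the class, whereas fitted log2 changes use TMM scaling, so the 2 need not correspond. Some fits lay outside the log2 differences within the libraries. These were Samhd1 (-0.95, libraries -0.86 to -0.63), Tk1 (1.30, libraries 1.33 to 1.64) and Dtymk (1.26, libraries 1.28 to 1.47).

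Rrm2 had the largest change. Its level was 5.99, 7.01, 7.95 and 7.37 CPM in other cells of the 4 libraries and 123, 129, 100.1 and 103 CPM in cycling cells. The 2 states did not overlap in any library, and the fitted difference was 14.5-fold (log2 change 3.85 ± 0.11, SE, edgeR adjusted p = 4.78e-11). Other cells include the S gene high cells, which gave 222 of 547, 280 of 540, 357 of 613 and 205 of 473 of their Rrm2 UMIs. Without those cells the level of Rrm2 in other cells was 3.75, 3.60, 3.55 and 4.41 CPM. The catalytic partner Rrm1 went from 14.0, 14.5, 15.6 and 15.5 CPM to 96.9, 106, 99.0 and 87.9 CPM. That was a 5.87-fold difference (log2 2.55 ± 0.07, edgeR adjusted p = 3.16e-11), smaller than for Rrm2 although both were higher in 4 of 4 libraries. Rrm2b, the alternative small subunit, moved the other way. It had 20.3, 17.0, 20.1 and 18.6 CPM in other cells and 14.6, 16.03, 17.3 and 15.2 CPM in cycling cells (log2 -0.43 ± 0.09, edgeR adjusted p = 0.00154). The ranges of its 2 states overlapped across libraries, and within each library the cycling cells were the lower.

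Among the thymidylate enzymes, Tyms rose most. It had 12.8, 16.5, 14.5 and 15.4 CPM in other cells and 129.5, 153, 115 and 129 CPM in cycling cells, a 7.96-fold difference (log2 2.99 ± 0.06, edgeR adjusted p = 5.10e-12). Dut, which feeds it with dUMP, went from 42.4, 47.1, 46.9 and 46.2 CPM to 190.1, 218, 188 and 171 CPM (log2 1.91 ± 0.06, edgeR adjusted p = 9.76e-11). The salvage kinase Tk1 went from 47.8, 37.0, 47.5 and 32.7 CPM to 123, 105, 121 and 104 CPM (log2 1.30 ± 0.06, edgeR adjusted p = 7.10e-09). Dtymk, which acts after both, went from 59.7, 63.0, 61.0 and 56.1 CPM to 162, 173, 149 and 157 CPM (log2 1.26 ± 0.05, edgeR adjusted p = 1.03e-09). Each of these 4 genes was higher in the cycling cells of every library, with no overlap of the 2 states. How many of all genes lacked such overlap was not counted.

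Dck and Samhd1 did not share that rise. Dck had 39.1, 35.6, 43.8 and 37.7 CPM in other cells and 46.0, 35.5, 57.1 and 40.1 CPM in cycling cells, and the 2 states overlapped (log2 0.03 ± 0.07, edgeR adjusted p = 0.673). It passed the threshold with library totals as scale (log2 0.20, edgeR adjusted p = 0.0269) and with no upper limit on genes per cell (log2 0.25, edgeR adjusted p = 5.11e-04). Samhd1, which removes dNTPs, was 39.9, 38.3, 38.6 and 43.2 CPM in other cells and 21.6, 20.9, 24.7 and 25.5 CPM in cycling cells, a log2 change of -0.95 ± 0.07 (edgeR adjusted p = 3.12e-07). Its cycling cells were below its other cells in 4 of 4 libraries with no overlap.

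**Figure D2:**
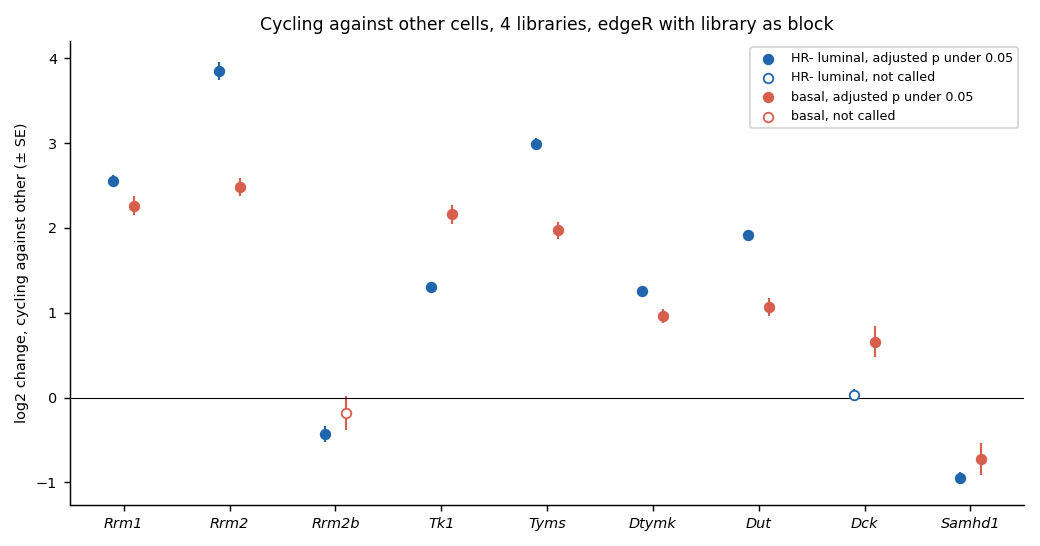
Fitted log2 change between cycling and other cells (y axis, ± SE, 4 libraries per lineage) for each gene (x axis) in HR- luminal and basal cells, filled points having an edgeR adjusted p under 0.05. Rrm2 changes most in HR- luminal cells (3.85) and in basal cells (2.48), Tk1 changes more in basal (2.16) than in HR- luminal cells (1.30), and Samhd1 is below 0 in both lineages.

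Finer steps of the mitotic score were read within HR- luminal cells. In cells with no UMI of the 3 mitotic genes, Rrm2 was at 5.51, 5.47, 6.58 and 7.35 CPM. Between 50 and 200 CPM of those genes it was at 56.7, 69.6, 49.5 and 42.0 CPM, and from 1000 CPM upward at 127, 121, 128 and 108 CPM. The steps were not even, with 53.9 CPM between 500 and 1000 CPM in Brca2mut/WT HU, a step of 41 cells. Samhd1 was lower at the upper end, from 40.9, 38.6, 39.2 and 43.4 CPM to 21.0, 16.3, 22.8 and 18.2 CPM. Dck was 39.1, 35.8, 42.7 and 36.8 CPM in cells with no UMI and 49.9, 44.5, 73.8 and 53.9 CPM in the highest step. It was higher there in each library, with counting intervals that overlapped in the WT and were separate in the Brca2mut/WT libraries. Rrm2b was 20.7, 16.7, 19.7 and 18.7 CPM in cells with no UMI and 12.6, 16.9, 17.7 and 15.6 CPM in the highest step, so that the 2 ranges overlapped.

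**Figure D3:**
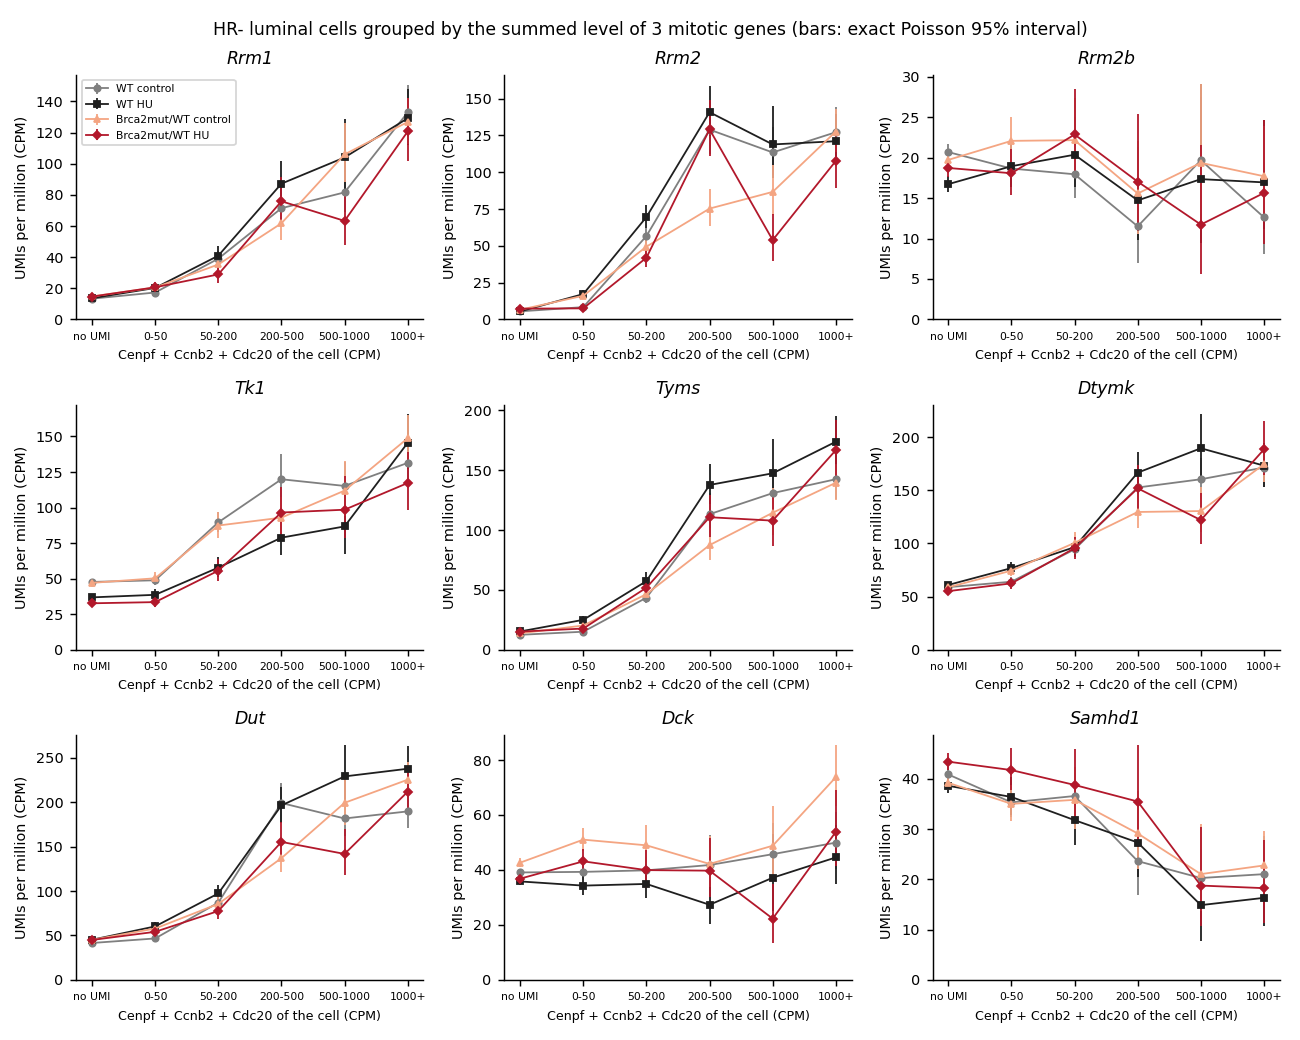
Level of each gene (y axis, CPM) in HR- luminal cells grouped by the summed CPM of Cenpf, Ccnb2 and Cdc20 in the cell (x axis), 1 line per library with exact Poisson 95% intervals. Rrm1, Tyms and Dut are higher in the highest than in the lowest group of every library, though not at every step between, Samhd1 lies at 38.6 to 43.4 CPM in the lowest and 16.3 to 22.8 CPM in the highest group, and Rrm2b spans a narrow range.

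Placing the genes before mitosis used the S gene high cells, whose defining genes include none of the 9. The cut of this class, 119.9 CPM, rests on few UMIs per cell, since its HR- luminal cells had median totals of 23565 to 27336 UMIs. How many of these cells were in S phase was not tested, so levels of the class are not levels of S phase. In HR- luminal cells Rrm2 was at 47.5, 56.5, 70.0 and 59.5 CPM in S gene high cells, between its levels in the remaining other cells (3.55 to 4.41 CPM) and in cycling cells (100.1 to 129 CPM). Of the 9 genes, 6 were called between S gene high and cycling cells, 1 higher in S gene high cells and 5 lower, where 22.4% and 20.1% of 7762 genes were called (1739 and 1564 genes, or 1101 and 2570 with library totals as scale, which moved the median change from 0.01 to -0.11). Tyms (log2 -1.05 ± 0.07), Rrm2 (-0.85 ± 0.11), Rrm1 (-0.57 ± 0.07), Dut (-0.38 ± 0.08) and Dtymk (-0.33 ± 0.06) were lower in S gene high cells, with edgeR adjusted p from 1.25e-07 for Tyms to 0.00198 for Dut. Tyms thus stood at 50.3, 66.4, 60.0 and 57.2 CPM, well under its cycling range of 115 to 153 CPM. For Tk1 the difference was smaller, log2 -0.14 ± 0.06 (edgeR adjusted p = 0.0624), at 103, 83.0, 104 and 86.6 CPM in S gene high cells. Its log2 differences within the libraries were -0.34 to -0.21, a range that does not hold this TMM-scaled fit. Tk1 passed the threshold in 6 of 14 alternatives, among them library totals as scale (log2 -0.27, edgeR adjusted p = 0.00231). Samhd1 was the gene higher in S gene high cells, 30.6, 36.5, 31.6 and 47.9 CPM (log2 0.75 ± 0.11, edgeR adjusted p = 1.07e-04). Dck (log2 0.19 ± 0.08, edgeR adjusted p = 0.0880) and Rrm2b (log2 0.27 ± 0.13, edgeR adjusted p = 0.122) were not called. The order of remaining other cells, S gene high cells and cycling cells, from low to high, was found for Rrm1, Rrm2, Tyms, Dut, Dtymk and Tk1 in all 4 HR- luminal libraries. In basal cells it was found for Rrm1, Rrm2, Tk1 and Tyms in all 4 libraries and for Dut and Dtymk in 2 of 4. The share of all genes with this order was not counted, so the order is a description of these genes.

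Basal cells, the contractile layer of the gland, gave the same contrast with fewer cells. In basal cells, 7 of the 9 genes were called higher in cycling than in other basal cells and 1 lower, where 21% and 23% of 7957 genes were called. Rrm2 was 17.4, 26.1, 10.3 and 19.0 CPM in other and 95.2, 134, 79.1 and 125 CPM in cycling basal cells, a 5.59-fold difference (log2 2.48 ± 0.11, edgeR adjusted p = 1.72e-09). Rrm1 went from 20.6, 23.5, 18.4 and 25.5 CPM to 101, 137, 79.1 and 109 CPM (log2 2.26 ± 0.11, edgeR adjusted p = 4.09e-09). For both subunits the states were apart in every library. Tk1 went from 34.9, 32.1, 34.0 and 37.0 CPM to 138, 184, 150.1 and 158 CPM (log2 2.16 ± 0.11, edgeR adjusted p = 4.75e-09). Tyms changed by log2 1.98 ± 0.10, Dut by 1.07 ± 0.10 and Dtymk by 0.96 ± 0.09, each higher in 4 of 4 libraries, with edgeR adjusted p from 5.39e-09 for Tyms to 1.96e-06 for Dtymk and 4.07e-06 for Dut.

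The low genes were less firm in basal cells. Dck rested on 8 to 45 UMIs per library in cycling cells, at 16.9, 14.5, 12.9 and 13.6 CPM against 8.72, 9.70, 9.44 and 7.50 CPM in other cells (log2 0.66 ± 0.19, edgeR adjusted p = 0.0117). It was under 10 CPM in other cells of every library and passed the filter through its cycling cells, and it was also called with no filter. Its call was lost in 4 of 14 alternatives, without the WT control library (edgeR adjusted p = 0.0809), without the WT HU library (0.0541), with cycling set at 400 CPM (0.146) and with DESeq2 (0.0592). Samhd1 was 10.8, 20.6, 32.3 and 28.6 CPM in cycling and 33.2, 28.4, 37.7 and 41.0 CPM in other cells (log2 -0.72 ± 0.19, edgeR adjusted p = 0.00706), lower in each library. Without the call passing, Rrm2b was 17.5, 11.3, 6.45 and 9.04 CPM in cycling against 14.8, 12.7, 13.4 and 10.7 CPM in other cells (log2 -0.18 ± 0.20, edgeR adjusted p = 0.502), on 4 to 35 UMIs per library in cycling cells.

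Whether the cycling change itself differed between lineages was tested as an interaction over 16 sums. This interaction was called for 5 of the 9 genes, 2 with a larger change in basal cells and 3 with a smaller one, where 3.83% and 2.1% of 7983 genes were called (306 and 168 genes, or 80 and 616 with library totals as scale, which moved the median difference from 0.05 to -0.15). Rrm2 differed by log2 -1.25 ± 0.23 (basal minus HR- luminal, edgeR adjusted p = 0.00725), Tyms by -0.89 ± 0.15 (edgeR adjusted p = 0.00401) and Dut by -0.72 ± 0.20 (edgeR adjusted p = 0.0416). Tk1 differed in the opposite sense, by 0.97 ± 0.18 (edgeR adjusted p = 0.00704), as did Dck, by 0.77 ± 0.19 (edgeR adjusted p = 0.0291). The other 4 were not called, with Rrm1 at -0.17 ± 0.16, Dtymk at -0.18 ± 0.12, Rrm2b at 0.38 ± 0.21 and Samhd1 at 0.30 ± 0.23. Each of the 5 calls was lost when at least 1 of the libraries was left out, with 1 call left without WT control, 2 without WT HU, 4 without Brca2mut/WT control and 3 without Brca2mut/WT HU. With no block for library, 2 of the 9 calls were made. The direction of all 9 differences was the same in every alternative.

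Lineages were also compared directly. In other cells, all 9 genes were called between basal and HR- luminal cells, 5 higher and 4 lower in basal cells, where 36% and 35.4% of 7847 genes were called (2821 and 2780 genes, or 3514 and 2123 with library totals as scale, which moved the median from 0.00 to 0.12). Dck showed the widest gap. It passed the filter through HR- luminal cells, being under 10 CPM in basal other cells of every library, and was called with no filter too. It was 8.72, 9.70, 9.44 and 7.50 CPM in basal and 39.1, 35.6, 43.8 and 37.7 CPM in HR- luminal other cells, 0.212 of the HR- luminal level (log2 -2.24 ± 0.09, edgeR adjusted p = 1.28e-06), and the log2 change ranged from -2.35 to -2.05 over 14 alternatives. The lineages did not overlap among cycling cells either, 12.9 to 16.9 CPM in basal against 35.5 to 57.1 CPM in HR- luminal cells. In the 525 HR+ luminal cells, taken from the cells with high Areg and low Krt14, Dck was 8.46, 5.32, 6.87 and 8.09 CPM. HR- luminal cells thus had the highest Dck level, and the ranges of basal and HR+ luminal cells overlapped.

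Dut was higher in basal other cells, 123, 183, 91.3 and 94.6 CPM against 42.4, 47.1, 46.9 and 46.2 CPM (log2 1.27 ± 0.16, edgeR adjusted p = 3.23e-04). Rrm2 also was higher, 17.4, 26.1, 10.3 and 19.0 CPM against 5.99, 7.01, 7.95 and 7.37 CPM (log2 1.248 ± 0.214, edgeR adjusted p = 0.00163), having passed the filter through basal cells and being called with no filter too. The call was lost once, at an edgeR adjusted p of 0.0555 when cells had no upper limit on genes. Tyms (log2 0.95 ± 0.09), Rrm1 (0.44 ± 0.09) and Dtymk (0.44 ± 0.06) were higher in basal cells in 4 of 4 libraries, with edgeR adjusted p of 8.76e-05, 0.00364 and 5.65e-04. S gene high cells made up 6.55% to 13.1% of basal and 4.75% to 6.26% of HR- luminal cells. Without them Rrm2 was still 6.95 to 10.4 CPM in basal against 3.55 to 4.41 CPM in HR- luminal cells, Dut 79.0 to 148 against 38.7 to 41.0 CPM and Tyms 18.0 to 25.6 against 10.8 to 13.1 CPM. For Rrm1 the gap narrowed to 13.0 to 19.9 against 11.2 to 12.9 CPM.

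Rrm2b was lower in basal other cells, 14.8, 12.7, 13.4 and 10.7 CPM against 20.3, 17.0, 20.1 and 18.6 CPM (log2 -0.66 ± 0.08, edgeR adjusted p = 3.23e-04). In HR+ luminal cells it was 33.3, 26.1, 33.3 and 28.9 CPM, above both other lineages in each library, a difference that was not tested. HR+ luminal cells of all states had 7.95 to 17.9 CPM of Rrm1, 17.0 to 29.0 of Rrm2, 13.0 to 24.2 of Tyms, 13.7 to 22.3 of Tk1, 74.8 to 87.4 of Dtymk, 61.1 to 91.5 of Dut and 26.9 to 43.7 of Samhd1. The 5 stromal markers summed to 708 to 1803 CPM in the HR+ luminal class against 3.94 to 8.78 CPM in HR- luminal cells. Only 1 of the 5 reached 10 CPM in HR+ luminal cells of any library and 2 had no UMI there. The sum thus came almost wholly from 1 gene, and the part of these markers in the HR+ values was not tested. Samhd1 was slightly lower in basal cells, 33.2, 28.4, 37.7 and 41.0 CPM (log2 -0.33 ± 0.09, edgeR adjusted p = 0.0114), and that call was lost without WT control (edgeR adjusted p = 0.0506) and with library totals (0.0534). Tk1 stood at 34.9, 32.1, 34.0 and 37.0 CPM (log2 -0.37 ± 0.11, edgeR adjusted p = 0.0216), lower in 3 of 4 libraries, and was called in 8 of 14 alternatives. Without S gene high cells Tk1 was 26.8, 18.8, 26.5 and 22.4 CPM in basal and 44.9, 33.9, 43.4 and 29.7 CPM in HR- luminal cells, lower in each library.

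Turning to HU and genotype, ratios were taken between single libraries on the log2(CPM + 1) scale, so that intervals cover counting error only. The 4 comparisons share libraries, and a gene was counted as higher or lower when the larger of its 2 values exceeded the smaller by 25%. Rrm2 in other HR- luminal cells and Dck in other basal cells were under a mean of 10 CPM and were not counted there. In other HR- luminal cells with HU, 1 of 8 genes was higher and 1 lower in WT (2.77% and 4.12% of 7478 genes), and 0 higher and 1 lower in Brca2mut/WT (2.07% and 2.85%). Of these 3 differences, 2 stayed past the limit with no upper gene limit on cells. Between genotypes 0 of 8 were higher or lower in Brca2mut/WT control cells (2.97% and 1.44%) and 0 of 8 in HU cells (2.18% and 0.976%). Rrm2, which was not counted, was 7.95 CPM in Brca2mut/WT control against 5.99 CPM in WT control, a log2 ratio of 0.36 with separate counting intervals. After HU it was 7.37 against 7.01 CPM (log2 ratio 0.06), with overlapping intervals. Without S gene high cells Rrm2 was 3.55 CPM in Brca2mut/WT control against 3.75 CPM in WT control, and 4.41 against 3.60 CPM after HU. The counting intervals then overlapped in both comparisons, and the part of S gene high cells in the ratio was not tested.

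Tk1 was the gene below the limit after HU in both genotypes, and was so with no upper gene limit as well (log2 ratios -0.38 and -0.35). Its level in other HR- luminal cells was 47.8 CPM in WT control (interval 46.4 to 49.3) and 37.0 CPM in WT HU (35.7 to 38.4), a log2 ratio of -0.36. In Brca2mut/WT it was 47.5 CPM in control (45.9 to 49.0) and 32.7 CPM in HU (31.3 to 34.2), a log2 ratio of -0.52. The counting intervals were separate in both genotypes. Cells were also split by the 4 antibody tags of a library, into pools whose key is not given in the sources used here. Tk1 in pools 1 to 4 was 60.2, 37.4, 39.9 and 29.9 CPM in WT control, 44.5, 16.8, 45.7 and 16.1 CPM in WT HU, 49.8, 43.0, 59.6 and 18.6 CPM in Brca2mut/WT control and 30.6, 24.5, 38.1 and 16.5 CPM in Brca2mut/WT HU. Pools 2 and 4 were below pools 1 and 3 in each library, and the range over pools of control and HU libraries overlapped in both genotypes. Between pools of the same number, Tk1 was lower with HU in 3 of 4 in WT and in 4 of 4 in Brca2mut/WT, although nothing says that a number marks the same material in each library.

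Tyms was 12.8 CPM in WT control and 16.5 CPM in WT HU other HR- luminal cells (log2 ratio 0.34), while in Brca2mut/WT the ratio was 0.08. Over pools it ranged from 10.9 to 23.3 CPM within WT control alone. Dck was lower with HU in cycling HR- luminal cells of both genotypes, 46.0 against 35.5 CPM in WT (log2 ratio -0.36) and 57.1 against 40.1 CPM in Brca2mut/WT (-0.50). The counting intervals overlapped in WT, at 40.4 to 52.2 and 30.1 to 41.6 CPM, and were separate in Brca2mut/WT, at 51.0 to 63.7 and 33.7 to 47.4 CPM. By count, 0 of 9 genes were higher and 1 lower with HU in cycling HR- luminal cells of WT (10.7% and 10.8% of 7805 genes) and likewise in Brca2mut/WT (9.01% and 10.6%). With no upper gene limit the Dck ratios were -0.14 in WT and -0.16 in Brca2mut/WT, within the limit. Over pools, Dck in cycling cells ranged from 29.7 to 69.1 CPM in the control libraries and from 21.2 to 59.5 CPM in the HU libraries.

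The subunits of the drug's target stayed within that limit in cycling HR- luminal cells. Rrm1 had log2 ratios with HU of 0.13 in WT and -0.17 in Brca2mut/WT, Rrm2 0.07 and 0.04, and Rrm2b 0.13 and -0.17. Between genotypes, 0 of 9 genes were higher or lower in control cells (8.4% and 5.36%), and 0 were higher and 2 lower in Brca2mut/WT after HU (12.7% and 9.03%). Those 2 were Rrm2, at 103 against 129 CPM (log2 ratio -0.32), and Dut, at 171 against 218 CPM (-0.35). Rrm2 was lower in Brca2mut/WT control as well, 100.1 against 123 CPM in WT (log2 ratio -0.30), just short of the limit. Its pools in cycling cells ran from 96.4 to 194 CPM in the WT libraries and from 27.1 to 129 CPM in the Brca2mut/WT libraries, and those ranges overlapped. With no upper limit on genes per cell the Rrm2 ratio after HU turned to 0.01 and that of Dut was -0.17, so that none of the 4 differences in cycling HR- luminal cells stayed past the limit.

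**Figure D4:**
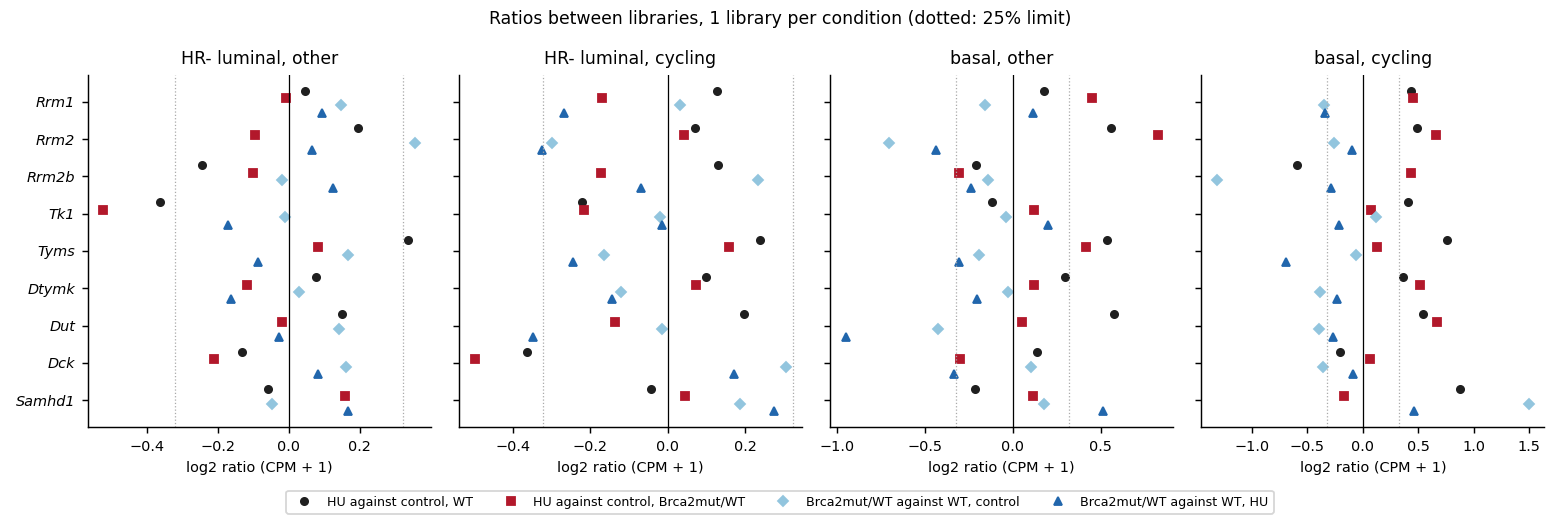
Log2 ratio of CPM + 1 between libraries (x axis) for each gene (y axis) in 4 classes of cells, with 1 symbol per comparison. There is 1 library per condition, and no error bars are drawn since replicates within a library cannot be told apart. In HR- luminal cells nearly all ratios lie within the dotted lines of the 25% limit, Tk1 and Dck being the lowest with HU, whereas in basal cycling cells, which number 29 to 123 per library, the ratios spread from -1.31 to 1.50.

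Ratios were wider in basal cells. In other basal cells 3 of 8 genes were higher with HU in WT and 0 lower (8.61% and 8.46% of 7940 genes), and the counts were the same in Brca2mut/WT (10.2% and 8.04%). Rrm2 and Tyms were among the 3 in both genotypes. Rrm2 was 17.4, 26.1, 10.3 and 19.0 CPM, giving log2 ratios of 0.56 in WT and 0.82 in Brca2mut/WT, with separate intervals in both. Tyms was 27.7, 40.6, 24.2 and 32.7 CPM, with ratios of 0.54 and 0.42, its intervals being separate in WT and overlapping in Brca2mut/WT. S gene high cells were 8.85% of WT control, 13.1% of WT HU, 6.55% of Brca2mut/WT control and 10.7% of Brca2mut/WT HU basal cells. Without those cells Rrm2 was 10.4, 9.70, 6.95 and 8.26 CPM, with overlapping intervals between HU and control in both genotypes. Tyms without them was 21.2, 25.2, 18.0 and 25.6 CPM. The part of the S gene high share in the Rrm2, Tyms and other ratios was not tested. With no upper gene limit, 9 of the 11 differences in other basal cells over the 4 comparisons stayed past the limit. For HU in Brca2mut/WT 1 of the 3 stayed, as the log2 ratio of Tyms fell to 0.21 and that of Rrm1 to 0.31.

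Dut and Rrm2 were lower in Brca2mut/WT than in WT other basal cells of both treatments, with Rrm2 at log2 ratios of -0.70 in control and -0.44 in HU cells. Dut was 123, 183, 91.3 and 94.6 CPM, so that the log2 ratio of Brca2mut/WT against WT was -0.42 in control and -0.95 in HU cells, and the ratio of HU against control was 0.58 in WT and 0.05 in Brca2mut/WT. Dut also differed between pools of 1 library, at 60.9, 120.1, 63.1 and 153 CPM in pools 1 to 4 of WT control and 73.9, 223, 95.2 and 225 CPM in those of WT HU. The pools were uneven in size, pool 4 giving 295 of the WT control cells and pool 2 giving 313 of the WT HU cells. In Brca2mut/WT HU the values were 93.5, 61.3, 75.4 and 127 CPM, where pool 2 had 12 cells. Without pool 4 of WT control the genotype ratio of Dut in control cells turned to 0.19. Over basal cells of all states, pools 2 and 4 had 64 and 354 cells in WT control and 433 and 167 in WT HU. In Brca2mut/WT they had 2 and 126 cells in control and 13 and 69 in HU. The make-up of pools thus differed between genotypes, and its part in the Dut and Rrm2 ratios was not tested. By count, 0 of 8 genes were higher and 2 lower in Brca2mut/WT control against WT control (7.75% and 6.79%), and 1 higher and 2 lower after HU (10.8% and 8.31%), the higher one being Samhd1 at 41.0 against 28.4 CPM (log2 ratio 0.51).

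Among cycling basal cells, 7 of 9 genes were higher and 1 lower with HU in WT (14.7% and 21.2% of 7807 genes), and 5 were higher and 0 lower in Brca2mut/WT (28% and 23%). Rrm1, Rrm2, Dtymk and Dut were higher in both genotypes. These counts depended on the limits set for cells. In the alternative with no upper gene limit, 0 of the 8 differences in WT and 4 of the 5 in Brca2mut/WT stayed past the 25% limit. Dut was 242, 353, 184 and 292 CPM, with ratios of 0.54 in WT and 0.67 in Brca2mut/WT and separate intervals in both. With no upper gene limit the Dut ratios were 0.18 and 0.26, within the 25% limit in both genotypes. Rrm1 was 101, 137, 79.1 and 109 CPM, with ratios of 0.44 and 0.45, and its intervals overlapped in Brca2mut/WT, where control and HU had 29 and 34 cycling basal cells and the ratio turned to -0.013 without pool 4 of the HU library. The Rrm2 ratio in WT was 0.49 and turned to -0.021 with cycling set at 400 CPM. Tyms was higher in WT HU at 183 against 108 CPM (log2 ratio 0.76) and had a ratio of 0.13 in Brca2mut/WT. Between genotypes 1 gene was higher and 5 lower in control cells (19.5% and 24%), and 1 higher and 2 lower after HU (23.8% and 17%). Samhd1 was the higher one in both, on 16 UMIs in WT control and 20 in Brca2mut/WT control, and its ratio between controls turned from 1.50 to -0.16 with no upper gene limit. With no such limit, 1 of the 6 differences between control genotypes and 0 of the 3 after HU stayed past 25%.

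Rrm2b and Samhd1 are known to respond to p53 and to interferon, so their levels were read beside those 2 gene groups. In cycling against other HR- luminal cells, 0 of 7 p53 target genes tested were called higher and 6 lower (median log2 change -0.29), and 0 of 8 interferon genes were higher and 7 lower (median -0.81), beside 33.1% of all genes higher, 34.6% lower and a median of -0.02. Rrm2b (-0.43 ± 0.09) and Samhd1 (-0.95 ± 0.07) changed in the same direction as most of those genes. The tag pools gave a second view. Cdkn1a, the p53 target that arrests the cycle, was 125, 312, 136 and 366 CPM in pools 1 to 4 of WT control and 202, 556, 184 and 561 CPM in those of Brca2mut/WT HU, and pools 2 and 4 were above pools 1 and 3 in all 4 libraries. Rrm2b in other HR- luminal cells was 19.1, 18.7, 21.6 and 20.2 CPM in the same pools of WT control and 19.3, 19.9, 16.8 and 19.3 CPM in those of Brca2mut/WT HU, and ranged from 15.6 to 21.6 CPM over all 16 pools, in no fixed order with those of Cdkn1a. Ifit3, an interferon-induced gene, reached 920.0 CPM in pool 2 of Brca2mut/WT HU and 682 CPM in pool 2 of Brca2mut/WT control. Like those of Cdkn1a, these values were over all HR- luminal cells. Samhd1 in other HR- luminal cells of pool 2 of Brca2mut/WT HU was 37.5 CPM, inside its range of 31.4 to 46.7 CPM over the 16 pools.

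**Figure D5:**
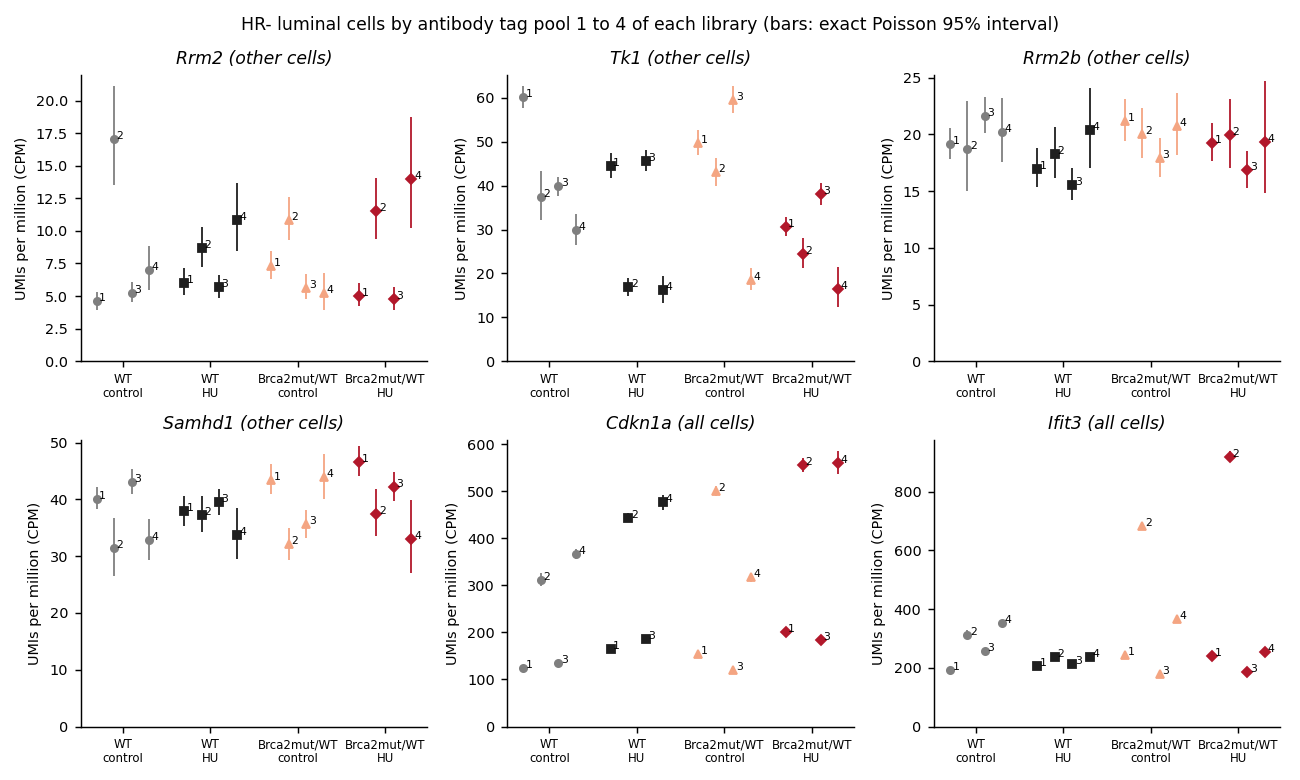
Levels (y axis, CPM) of Rrm2, Tk1, Rrm2b and Samhd1 in other HR- luminal cells and of Cdkn1a and Ifit3 in all HR- luminal cells, for the cells of each antibody tag (points numbered 1 to 4) in each library (x axis), with exact Poisson 95% intervals. Tk1 is lower and Cdkn1a higher in pools 2 and 4 of every library, Rrm2b stays between 15.6 and 21.6 CPM in all 16 pools, and Ifit3 stands highest in pool 2 of Brca2mut/WT HU, where Samhd1 does not.

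Other members varied between pools as well. Rrm2 in other HR- luminal cells was 4.60, 17.0, 5.26 and 7.02 CPM in pools 1 to 4 of WT control and 5.04, 11.5, 4.77 and 14.0 CPM in those of Brca2mut/WT HU, where the highest, pool 2 of WT control, came from 171 cells and 82 UMIs. Tyms and Dtymk were higher in pools 2 and 4 than in pools 1 and 3 of every library, with Dtymk at 56.9, 72.7, 57.7 and 69.5 CPM in WT control. The share of cycling cells was also higher in pools 2 and 4 of each library, from 6.25% to 11.9% against 2.68% to 5.19%, and its part in these differences was not tested. Pools were not tested.

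The genes of 6 further lists of nucleotide metabolism, 50 in all, were read beside the 9. Of 41 tested in cycling against other HR- luminal cells, 30 were higher and 6 lower, with a median log2 change of 0.56, where 33.1% of all genes were called higher and 34.6% lower. In basal cells 28 of 43 were higher and 2 lower, with a median of 0.40, where the shares of all genes were 21% and 23%. All 5 tested thymidylate and folate genes rose in HR- luminal cells, as did 9 of 10 purine synthesis genes, 4 of 5 electron donors of the reductase and 3 of 4 pyrimidine synthesis genes. Kinases and salvage genes were mixed, with 6 higher and 4 lower of 11, and degradation and sanitation genes had 3 higher and 2 lower of 6. Among the largest rises were those of Umps, which makes UMP (log2 1.03 ± 0.11, edgeR adjusted p = 5.70e-06), and Shmt2, a mitochondrial folate enzyme (0.99 ± 0.07, edgeR adjusted p = 2.63e-07). The largest falls were those of the nucleoside transporter Slc29a1 (-0.42 ± 0.07, edgeR adjusted p = 1.78e-04), the nucleotidase Nt5c (-0.41 ± 0.09, edgeR adjusted p = 0.00136) and the guanylate kinase Guk1 (-0.26 ± 0.07, edgeR adjusted p = 0.00456). Between lineages 25 of 41 were higher in basal and 8 in HR- luminal other cells (median 0.52), where 36% and 35.4% of all genes were. In the interaction 3 of 43 were called larger and 2 smaller in basal cells, near the 3.83% and 2.1% of all genes.

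Of 8 tested S genes outside the score, 7 rose in cycling HR- luminal cells, with a median log2 change of 1.39 against 1.30 for the 9 members, where 33.1% of all genes were called higher. In S gene high against cycling cells 9 of 10 S genes were higher (median 0.83), where 22.4% of all genes were, and the 9 members had a median of -0.33. All 10 G2/M genes tested were higher in cycling cells than in either other class. Because the classes were cut on mitotic and S genes, the direction of both of these lists follows from the choice of cells and is a description. Of 9 regulators of the pathway, 3 passed the filter in HR- luminal cells, with 2 higher and 1 lower.

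Patterns over lineage, library and tag pool were compared by Pearson's r of log2(CPM + 1) over 30 sums of at least 50 cells, among 5638 genes with a mean of 20 CPM. The sums share libraries and differ most by lineage, so r is given as a description. Rrm1 was most like Hmgb2 (r = 0.925), Mcm7 (0.923) and Dek (0.909), and Rrm2 most like Pclaf (0.911), Mrpl18 (0.899) and H2afz (0.895). Tyms was nearest to Ppih (0.956), Mrpl18 (0.941) and Lyar (0.918), Dut to Tfdp1 (0.945), Ssna1 (0.930) and Dek (0.927), and Dtymk to Rnaseh2c (0.944), Mcm7 (0.942) and Snrnp40 (0.941). Dck had the highest values, with Akap12 (0.978), Tmbim6 (0.974) and Cfap410 (0.974), and Rrm2b was nearest to Tmem161a (0.875), Bbc3 (0.872) and Dusp4 (0.851). For Tk1 the highest were Vdac1 (0.725), Mif (0.712) and Ncaph2 (0.711), and for Samhd1 Ccny (0.750), Kdm5a (0.748) and Gbp2b (0.697), so that these 2 genes had the least close neighbours.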

How the data were processed

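Libraries were made by droplet single-cell RNA-seq with antibody tags, 1 per condition. The authors aligned reads and deposited UMI counts per barcode for each library as Cell Ranger matrices (version 6.0.2 per the submitters' notes, 6.1.1 per the file headers, mm10), holding 32285 genes and 4 antibody tags, and the study analysed them with Seurat 4.0 in R 4.1.3. The total gene UMI count per library was 243430259 to 302135155. From these counts, barcodes were kept if they held 1000 to 6000 genes and if mitochondrial UMIs made up less than 5%, and their median UMI count was 24180 to 26893. No doublet caller was run, and cells with more than 1 tag were counted (a tag was present at 100 UMIs and 20% of the cell's tag UMIs). UMIs were summed per library, lineage and state, given as CPM with exact Poisson 95% intervals, which cover counting error only, and tested with edgeR 4.0.16 in R 4.3.3 (quasi-likelihood, TMM, library as block, genes with a mean of at least 10 CPM, Benjamini-Hochberg adjustment over all genes, threshold 0.05). DESeq2 1.42.0 was an alternative. Ratios between libraries used log2(CPM + 1), a mean of at least 10 CPM and a limit of a 25% difference, with no test. The tests were checked on simulated data. Nothing in the labels says that libraries came from separate cultures per replicate, so p-values measure only the spread between these 4 libraries, which also differ in condition. The members, gene lists, cell classes and tests were chosen with earlier results of these data known. Named were all 9 members, the 3 largest rises and the 3 largest falls among called genes of the other nucleotide lists, and the 3 genes most like each member. The result for 1 of the named genes is not reported here. Tymp was not among the features. The S gene high cut lay at 119.9 CPM. Figures were drawn with matplotlib 3.10.9 under Python 3.11.15.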

Additional observations from a re-analysis of the deposited data

Results flagged for a closer look

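The cycling change differed between basal and HR- luminal cells, by edgeR's test of the difference itself over 4 libraries, for 5 of the 9 genes. Of all genes tested, 3.83% were called with a larger and 2.1% with a smaller change in basal cells. The difference, basal minus HR- luminal on the log2 scale, was -1.25 for Rrm2, -0.89 for Tyms and -0.72 for Dut, and 0.97 for Tk1 and 0.77 for Dck. In other cells all 9 genes were called between the lineages, where 36% of all genes were called higher and 35.4% lower in basal cells. The part of the level in other cells in the 5 differences was not tested. Rrm2, Tyms and Dut were higher and Dck lower in basal other cells, with no overlap of the lineages. Tk1 was called lower, but its ranges overlapped, at 32.1 to 37.0 CPM in basal and 32.7 to 47.8 CPM in HR- luminal cells. In Brca2mut/WT HU it was the higher in basal cells. Each of the 5 calls for the difference in cycling change was lost without at least 1 library. Tk1 lost it without WT HU (edgeR adjusted p = 0.0503), and Rrm2 (0.0823) and Tyms (0.0508) without WT control. Dut lost it without any 1 of the 4 libraries (edgeR adjusted p from 0.0518 to 0.239). Dck lost it without WT control (0.161), WT HU (0.106) or Brca2mut/WT HU (0.111). With no upper gene limit the Rrm2 difference was -0.86 and was not called (edgeR adjusted p = 0.0648).

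Rrm2b in cycling basal cells had a log2 ratio of HU against control of -0.60 in WT and 0.43 in Brca2mut/WT. It was picked out because the single libraries moved in opposite directions, and the difference was not tested. It rests on 4 to 35 UMIs per library, and the counting intervals of HU and control overlapped in both genotypes.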

How the results depend on the processing

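Of 630 refitted changes of single genes, 0 reversed with a call in either fit, 33 lost and 13 gained the threshold. The uncalled change of Dck between cycling and other HR- luminal cells (log2 0.03) went down to -0.04 over the alternatives. Of 3128 recomputed ratios 2920 stayed on their side of the 25% limit, 199 crossed it and 9 that had been past it reversed. The library was the block, and replicate numbers pair nothing across conditions. With no replicate block, the difference of the cycling effect between lineages was called for 155 genes in place of 474 and for 2 of the 9 in place of 5, and leaving out 1 library gave 104 (without WT control) to 207 genes and 1 to 4 of the 9. It was called for 805 genes with no filter on low genes and 919 with no upper gene limit. The latter setting also raised the mitochondrial limit to 10% and left out cells with more than 1 tag. For cycling against other basal cells, leaving out 1 library gave 2308 (without WT HU) to 3286 genes in place of 3498. For basal against HR- luminal other cells, 9642 genes were called with no filter in place of 5601, more genes being tested. For S gene high against cycling cells DESeq2 called 1857 in place of 3303. With no upper gene limit, 20 library ratios passed the 25% limit in place of 40, and 4 of those that reversed did so there, namely Samhd1 in cycling basal cells with HU in WT (-0.11) and between control genotypes (-0.16), and between genotypes after HU Rrm2 in cycling HR- luminal (0.0084) and Rrm1 in cycling basal cells (0.055). Rrm2 in cycling basal cells with HU in WT reversed with cycling at 400 CPM (-0.021). The rest reversed without 1 tag pool, Rrm1 in cycling basal cells with HU in Brca2mut/WT (-0.013, pool 4 of HU), Dut between control genotypes in other (0.19) and cycling basal cells (0.32, both pool 4 of WT control), and Dck there in cycling basal cells (0.016, pool 1 of Brca2mut/WT control). The cause was not tested. Using only cells with 1 tag was chosen after seeing the data. Basal cycling cells, 29 to 123 per library, limit depth most.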

Other observations

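Cells between 50 and 200 CPM of the mitotic genes entered no comparison. In HR- luminal cells of this kind, 142 to 317 per library, Rrm2 was 56.7, 69.6, 49.5 and 42.0 CPM and Rrm1 39.0, 40.9, 35.3 and 28.9 CPM, between the levels of other and of cycling cells in each library. Tyms was 43.4, 57.3, 46.4 and 51.8 CPM, Tk1 89.6, 57.7, 87.3 and 55.6 CPM and Samhd1 36.6, 31.8, 35.8 and 38.8 CPM there.

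S gene high basal cells, 22 to 117 per library, had 79.0, 92.5, 45.8 and 78.7 CPM of Rrm2, 84.8, 103, 89.6 and 72.1 CPM of Tyms, 106, 85.9, 114 and 118 CPM of Tk1 and 288, 329, 191 and 181 CPM of Dut. Basal cells between 50 and 200 CPM of the mitotic genes, 29 to 88 per library, had 73.1, 142, 114 and 24.3 CPM of Rrm2, above the cycling basal cells in WT HU and Brca2mut/WT control, and 75.9, 125, 117 and 51.7 CPM of Tyms, above them in Brca2mut/WT control.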
